A study of Mus musculus with 8 samples.

Results

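The genes described here are the mouse hepcidin pair and 8 further genes of systemic iron handling, 10 of the 56748 gene IDs measured in livers that lack the microRNA miR-93 and in wild-type livers. They were chosen by symbol: the iron hormone genes Hamp and Hamp2, transferrin (Trf), transferrin receptors 1 and 2 (Tfrc and Tfr2), the haemochromatosis protein Hfe, the iron exporter ferroportin (Slc40a1), the ferroxidase ceruloplasmin (Cp), and the heavy and light chains of ferritin (Fth1 and Ftl1). All 10 were found by Ensembl ID and all 10 passed the filter on low counts. The study sequenced total RNA of whole liver from miR-93 knockout mice (KO, 4 libraries) and wild-type mice (WT, 4 libraries). Both groups were fed a high fat-high fructose diet and are labelled as having metabolic dysfunction-associated steatotic liver disease at 16 weeks, so no liver of a mouse on ordinary chow enters the comparison. The labels give no strain, sex, age, allele or tissue of deletion, and do not say whether each library is a separate animal, so p-values reflect the variation among these libraries, which may be technical.

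Hepcidin is a peptide hormone that hepatocytes secrete. It binds ferroportin, the exporter through which iron leaves gut cells, macrophages and hepatocytes, and so lowers iron in plasma. In hepatocytes its transcription is driven by bone morphogenetic proteins through SMAD factors, in a complex with hemojuvelin and with input from Hfe and transferrin receptor 2, and by interleukin-6 through STAT3. Iron-responsive elements, short hairpins in messenger RNA that are bound by the iron regulatory proteins when iron is scarce, hold back translation of ferritin and ferroportin and protect the message of transferrin receptor 1. Mice carry a pair of hepcidin genes, and Hamp, also called hepcidin 1, encodes the iron hormone. In transgenic mice, Hamp2 did not have the iron-lowering effect of Hamp.

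The KO libraries held 9187279 to 10966019 counts and the WT libraries 5085860 to 7451026. Mitochondrially encoded transcripts made up 8.08% to 15.03% of the counts in KO and 25.4% to 77.8% in WT. The highest share was in WT library 4, which kept 1131446 counts outside those transcripts and detected 14287 genes, against 18412 to 20148 in the other 7 libraries. For genes named here whose call changes without this library both values are given, and the part of mitochondrial share and depth in the results below was not tested. The Mir93 gene had 0 counts in all 8 libraries, so the deposited gene counts give no check of the knockout. Summed markers of hepatocytes, the main source of hepcidin, summed to 50692 to 58271 in KO, against 58624 to 67220 in WT libraries 1 to 3 and 51241 in WT library 4, in counts scaled to a common library size (CPM). The sum was thus higher in WT than in every KO library except in WT library 4. Alb, named with its values known, weighed heavily in it, at means of 24152 CPM in KO and 34595 CPM in WT. Cyp2e1 and Ahsg, also named with their values known, went the other way. Cyp2e1 had means of 6414 CPM in KO and 1223 CPM in WT, and Ahsg 4534 CPM in KO and 2207 CPM in WT. Single markers went both ways. By the edgeR test below, 3 of 10 were called higher in KO and 2 lower, with a median log2 fold change of 0.03. Over all tested genes 10.4% were called higher and 10.7% lower. Without WT library 4 the markers gave 3 higher and 5 lower, where 17.8% and 17.5% of all genes were called. In whole liver, a different number of cells of a type and a different amount of RNA per cell cannot be told apart.

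All CPM values are TMM-scaled, which adjusts each library for its composition as well as its depth. Across all genes, edgeR's quasi-likelihood test with Benjamini-Hochberg adjustment called 21.0% of 13204 tested genes at an adjusted p under 0.05, 10.4% higher and 10.7% lower in KO. Of the 10 iron genes, 3 were called higher in KO (Tfr2, Cp and Fth1) and 2 lower (Hamp2 and Tfrc). The other 5 were not called. Without WT library 4, 5 were called higher and 3 lower, where 17.8% of all genes were called higher and 17.5% lower. The KO and WT libraries did not overlap for 6 of the 10, with KO above for 4 and below for 2. Over all tested genes the groups did not overlap for 30.3%, with KO above for 16.3% and below for 14.0%. The median log2 fold change over all tested genes was -0.01.

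**Figure D1:**
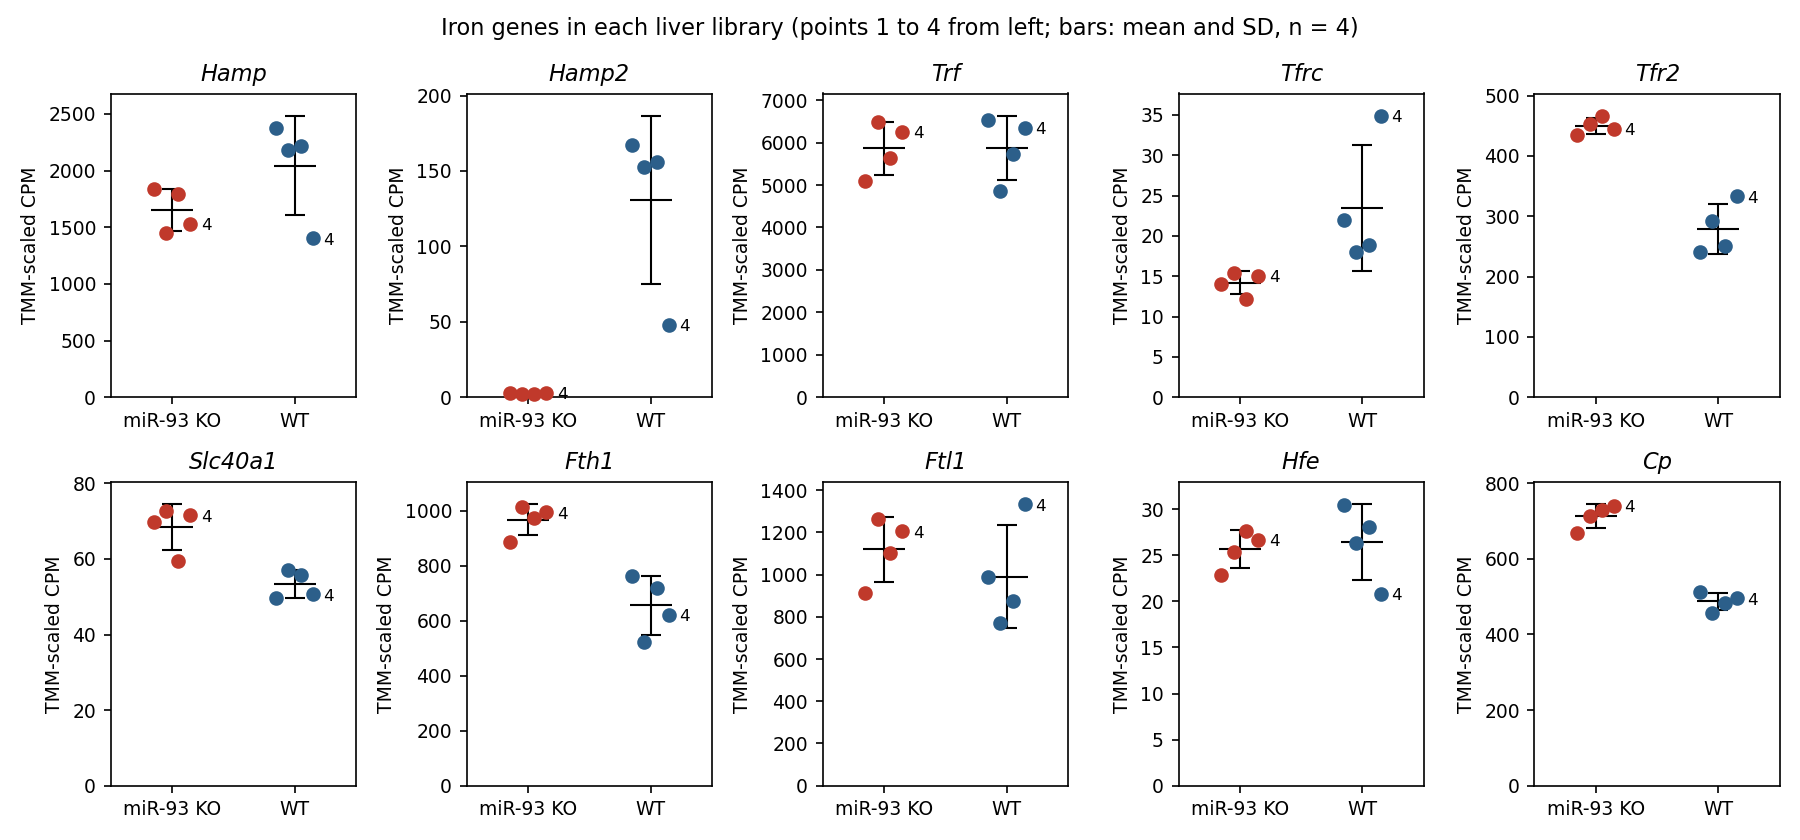
TMM-scaled CPM of the 10 iron genes in each of the 4 miR-93 KO and 4 WT liver libraries, with the mean and SD per group (n = 4) and library 4 marked. Hamp2 lies at 1.85 to 2.66 CPM in KO and at 47.8 to 167 CPM in WT, while the Hamp points of the groups overlap.

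The hepcidin genes parted from each other. Hamp, the hormone gene, had 1834, 1452, 1790 and 1532 CPM in the KO libraries, against 2380, 2182, 2215 and 1401 CPM in the WT libraries. The groups overlapped, because WT library 4 lay below all 4 KO libraries while the other 3 WT libraries lay above all 4. The log2 fold change of KO over WT was -0.31 ± 0.18 (SE), with a 95% interval of -0.70 to 0.09 and an adjusted p of 0.246 by edgeR. Without WT library 4 the change was -0.44 with an adjusted p of 0.000676, in a fit that called 35.2% of all genes. With library sizes alone in place of TMM, a scaling that moves the median of all genes to 0.54, the change of Hamp read 0.17. That scaling called 5.19% of all genes, 4.25% higher and 0.939% lower in KO, and of the 10 iron genes it called Hamp2 as lower and no other.

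Hamp2 was lower in every KO library. It had 2.52, 1.85, 2.05 and 2.66 CPM in KO, against 167, 153, 156 and 47.8 CPM in WT. The KO values rest on 31, 22, 28 and 35 counts, and the WT values on 1322, 1110, 1027 and 85 counts, so WT library 4 was the lowest of its group here as well. The lowest WT library still lay 17.9 times above the highest KO library. The log2 fold change was -5.86 ± 0.39 (SE), which is 57.9-fold lower in KO, with a 95% interval of -6.70 to -5.01 and an adjusted p of 2.86e-06 by edgeR. Without WT library 4 it was -6.11.

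A ratio taken inside each library does not depend on the scaling between libraries. The log2 ratio of Hamp to Hamp2 counts was 9.48, 9.58, 9.75 and 9.15 in KO, against 3.83, 3.84, 3.83 and 4.86 in WT. The first 3 WT libraries lay within 0.01 of each other, and all 4 KO libraries lay far above the highest WT library. The means were 9.49 ± 0.25 in KO and 4.09 ± 0.52 in WT (SD, n = 4 each), a difference of 5.40. A two-sided exact permutation test over the 70 assignments of the libraries gave p = 0.0286, the smallest it can give. Since the pair was chosen with its contrast already known, this p describes the separation and adds no independent support.

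As a share of the counts of the pair, Hamp2 took 0.137%, 0.127%, 0.114% and 0.174% in the KO libraries. In the WT libraries it took 6.56%, 6.54%, 6.57% and 3.30%. The exact 95% binomial intervals, which cover counting error only, lay between 0.0758% and 0.241% over the KO libraries. For WT library 4 the interval was 2.64% to 4.06%, below the lowest bound of the other WT libraries, 6.17%. The share in that library was therefore lower than in the other WT libraries by more than counting error.

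**Figure D2:**
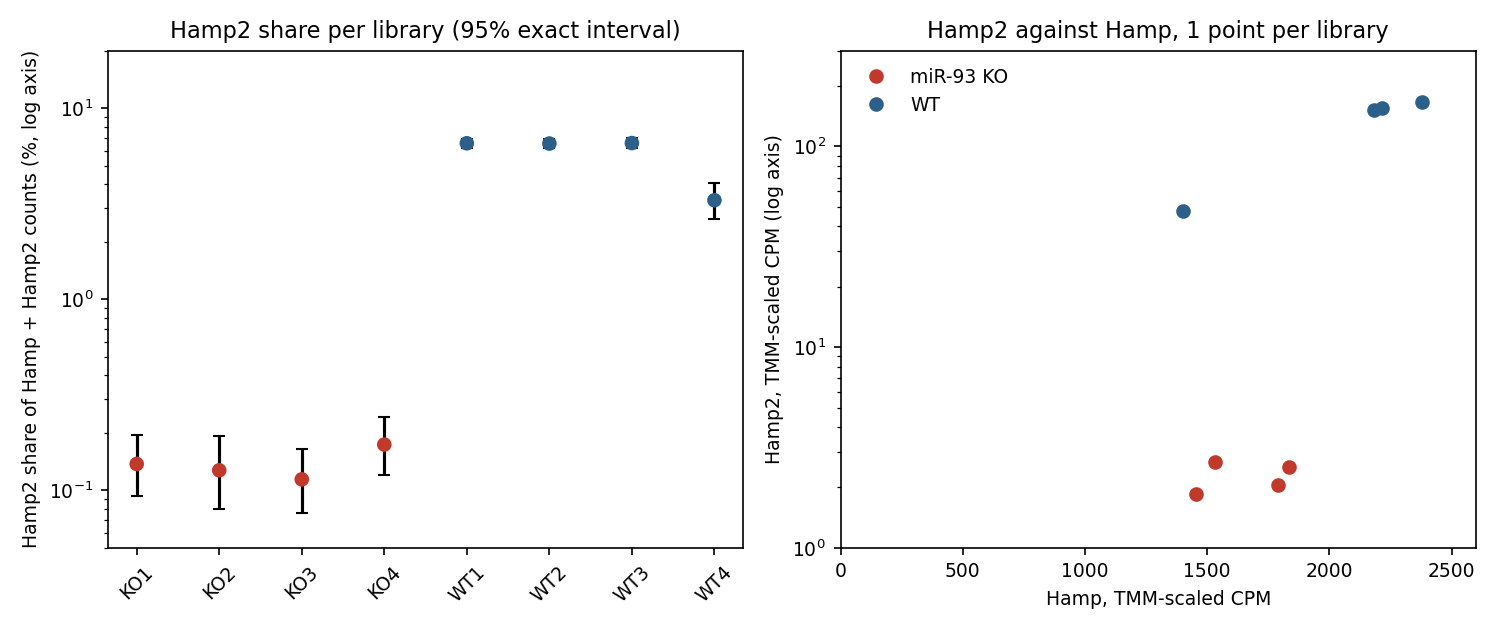
Left, share of Hamp2 in the counts of the pair (percent, log axis) in each miR-93 KO and WT liver library, with exact 95% binomial intervals. Right, Hamp2 (log axis) against Hamp (linear axis) in TMM-scaled CPM, 1 point per library: the groups are apart on the Hamp2 axis, at 1.85 to 2.66 CPM in KO and 47.8 to 167 CPM in WT, and overlap on the Hamp axis.

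Hamp and Hamp2 are neighbours on mouse chromosome 7, both on the minus strand, at chr7:30942368-30944029 and chr7:30922372-30924181 of GRCm38. The stretch just before each start site is printed here because it is where the known BMP and STAT elements of hepcidin lie and where the copies can be compared letter by letter. The sequences are RefSeq's on GRCm38.p6, from base -150 to base -1 relative to the annotated start, at chr7:30944030-30944179 for Hamp and chr7:30924182-30924331 for Hamp2, minus strand. Capitals mark the BMP response element GGCGCC, or the letters of Hamp2 aligned with it, and the STAT match TTCNNNGAA. Matches were searched on both strands.
Hamp: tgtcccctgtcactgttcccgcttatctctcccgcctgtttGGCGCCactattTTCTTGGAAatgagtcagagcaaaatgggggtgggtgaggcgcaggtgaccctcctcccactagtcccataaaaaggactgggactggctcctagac
Hamp2: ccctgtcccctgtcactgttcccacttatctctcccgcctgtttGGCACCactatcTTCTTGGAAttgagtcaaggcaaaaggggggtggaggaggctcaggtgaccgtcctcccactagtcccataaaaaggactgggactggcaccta

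The element begins at base -109 in Hamp, and the aligned letters begin at base -106 in Hamp2. They differ by the substitution G4A, with Hamp first and positions counted from the 5′ end of the element. The STAT match, at base -97 in Hamp and -94 in Hamp2, has the same letters in both. Over the 250 bases before the start, 227 aligned bases were identical and 20 differed, an identity of 91.9%. GGCGCC occurs in 11.9% and TTCNNNGAA in 8.3% of the 32851 RefSeq promoter windows, so a match is no mark of an iron gene. Each window held the 250 bases before the start and some bases after it, more than the stretch printed. Of the 8 iron genes in that promoter table, Tfrc also held GGCGCC, at base -89, and no other held a match to either motif. These matches describe letters and say nothing of binding in these livers.

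**Figure D3:**
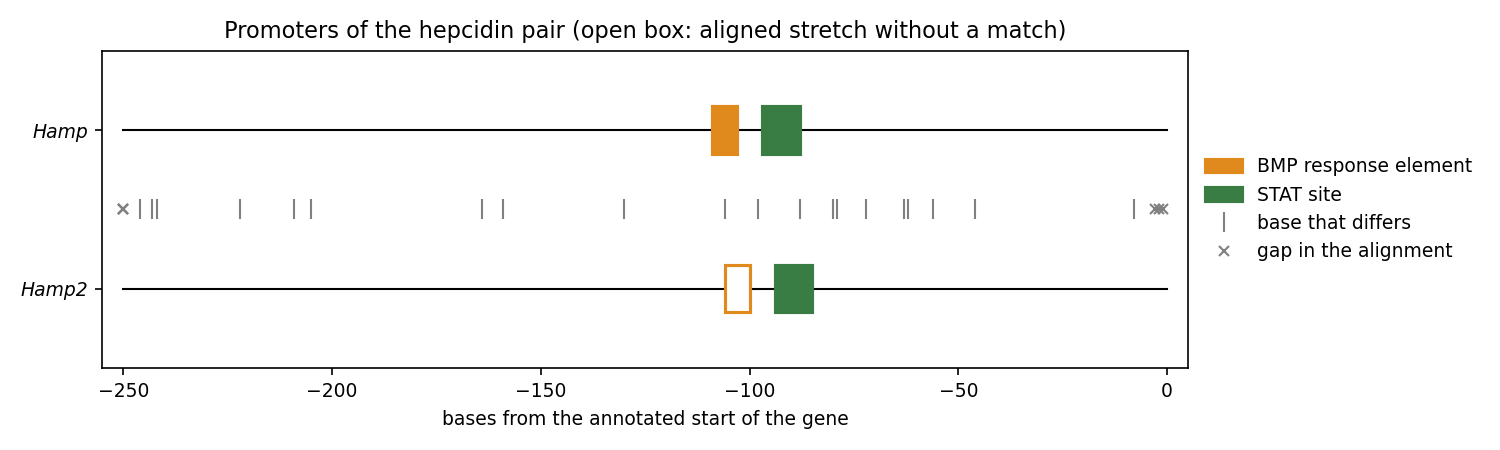
Positions of the BMP element and the STAT match before the start sites of Hamp and Hamp2 (horizontal axis, bases from the start), with grey marks where the aligned sequences differ over 250 bases. Hamp carries both matches, and Hamp2 carries the STAT match and a BMP element with 1 substitution.

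The likeness of the copies limits how their counts can be read. The annotated coding transcripts compared, of 410 bases for Hamp and 437 bases for Hamp2, were identical at 388 aligned bases and differed at 22. Of 50-base windows along the Hamp transcript 16.6% also occurred unchanged in Hamp2, of 75-base windows 3.87%, and of 100-base windows none of 311. The treatment of reads that match both genes by the authors' counting is not stated in the sources used here. The 22 to 35 Hamp2 counts per KO library, at 0.114% to 0.174% of the pair, are uncertain for that reason, and whether they hold reads of Hamp was not tested.

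Among the genes of iron delivery, the receptors moved in opposite directions and their ligand did not. Trf, the plasma iron carrier that hepatocytes secrete, had 5104, 6475, 5638 and 6256 CPM in KO, against 6534, 4866, 5742 and 6354 CPM in WT. The groups overlapped throughout, and the log2 fold change was -0.0014 ± 0.15 (SE, adjusted p = 0.996, edgeR). Hfe, a membrane protein that binds both transferrin receptors, had 22.9, 25.4, 27.6 and 26.7 CPM in KO, against 30.4, 26.4, 28.1 and 20.8 CPM in WT. Its groups overlapped as well, at a log2 fold change of -0.07 ± 0.14 and an adjusted p of 0.765.

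Tfr2, the hepatocyte sensor of iron-loaded transferrin, was higher in KO. It had 435, 454, 466 and 445 CPM in the KO libraries, against 241, 291, 251 and 333 CPM in the WT libraries, with no overlap and with WT library 4 nearest to KO. The log2 fold change was 0.69 ± 0.14 (SE, adjusted p = 0.00597, edgeR). Tfrc, the receptor by which most cells take up transferrin iron, was lower in KO. It had 14.1, 15.4, 12.2 and 15.0 CPM in KO, against 22.0, 18.0, 18.8 and 34.9 CPM in WT, where library 4 was the highest. The log2 fold change was -0.66 ± 0.20 with an adjusted p of 0.0382, and -0.46 with an adjusted p of 0.0105 without WT library 4. Leaving out any 1 KO library, or WT library 1, ended the call of Tfrc, at adjusted p-values of 0.0668 to 0.113. The log2 ratio of Tfr2 to Tfrc counts was 4.99 ± 0.18 in KO and 3.61 ± 0.33 in WT (SD, n = 4 each), and that of Trf to Tfrc was 8.69 ± 0.14 in KO and 8.01 ± 0.35 in WT.

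Of the export genes, Cp was higher in KO and Slc40a1 missed the threshold. Cp, the ferroxidase that hepatocytes secrete and that loads exported iron onto transferrin, had 669, 714, 728 and 740 CPM in KO, against 512, 458, 484 and 495 CPM in WT. Every KO library lay above every WT library, and both groups were narrow. The log2 fold change was 0.55 ± 0.12 (SE) with an adjusted p of 0.00919 by edgeR. Slc40a1, the exporter on which hepcidin acts, had 69.7, 72.7, 59.5 and 71.5 CPM in KO, against 49.6, 57.2, 55.7 and 50.6 CPM in WT. Its groups were separate too, but by little, and the test gave 0.36 ± 0.13 with an adjusted p of 0.0650. Without WT library 4 the log2 fold change was 0.35 with an adjusted p of 0.0111, and DESeq2 on all libraries gave an adjusted p of 0.0138.

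Kupffer cells, the macrophages of the liver, also carry ferroportin. Their 12 markers summed to 186 to 224 CPM in KO, against 66.1 to 85.2 CPM in WT libraries 1 to 3 and 229 CPM in WT library 4. Of these 12 markers 8 were called higher in KO and 0 lower, where 10.4% of all genes were called higher and 10.7% lower. None of the markers was at 0 in all libraries. The part of these cells in the level of Slc40a1 was not tested.

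Slc40a1 was the 1 gene of the 10 with a match to the seed of miR-93 in its longest annotated 3′ UTR. The mature microRNA is printed because its bases 2 to 8, in capitals, set that match, and the sequence is RefSeq's at chr5:138165574-138165596 of GRCm38.p6, minus strand. The 2 sites lie at bases 1087 and 1125 of a UTR of 1338 bases, at chr1:45908305-45908327 and chr1:45908267-45908289 of GRCm38, minus strand, with the match to the seed in capitals.
mmu-miR-93-5p: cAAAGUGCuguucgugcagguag
Slc40a1 first site: cttttgatGCACTTTcatggaga
Slc40a1 second site: tgctgtgaGCACTTTctttgtcg

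The letters GCACTTT occur in 11.8% of the 20931 genes with an annotated 3′ UTR. A match is a description of the sequence, and neither site was assayed here.

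For ferritin, the iron storage shell built of heavy and light chains, the heavy chain was higher in KO. Fth1, the chain that oxidises iron, had 888, 1015, 974 and 995 CPM in KO, against 765, 522, 719 and 623 CPM in WT, with no overlap. The log2 fold change was 0.56 ± 0.15 (SE, adjusted p = 0.0227, edgeR), and the call ended without KO library 2, 3 or 4 or WT library 2, at adjusted p-values of 0.0647 to 0.0735. Ftl1, the chain that aids formation of the iron core, had 911, 1264, 1102 and 1205 CPM in KO, against 988, 770, 873 and 1332 CPM in WT. The groups overlapped because WT library 4 was the highest of all 8, and the log2 fold change was 0.18 ± 0.19 (adjusted p = 0.532). Without that library it was 0.36 with an adjusted p of 0.0108. The log2 ratio of Fth1 to Ftl1 counts was -0.20 ± 0.12 in KO and -0.58 ± 0.37 in WT (SD, n = 4 each), with WT library 4 at -1.10. Both ferritin genes have processed pseudogenes of near-identical sequence, and the sources used here do not say how reads were divided among them.

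Iron-responsive elements were found in 4 of the 10 genes. They are printed because they mark which messages of the set the iron regulatory proteins can bind, in 2 places with opposite known effects. The search asked for a C, 5 bases, the loop CAGTGN and 5 bases that pair with the first 5, on the transcribed strand of the annotated UTRs (GENCODE M21, GRCm38). Each is shown with the loop in capitals.
Fth1, 5′ UTR, chr19:9982732-9982760, plus strand: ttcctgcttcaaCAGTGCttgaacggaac
Ftl1, 5′ UTR, chr7:45459779-45459807, minus strand: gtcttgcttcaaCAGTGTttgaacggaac
Slc40a1, 5′ UTR, chr1:45925465-45925493, minus strand: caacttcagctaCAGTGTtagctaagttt
Tfrc, 3′ UTR, chr16:32631219-32631247, plus strand: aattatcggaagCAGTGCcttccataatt
Tfrc, 3′ UTR, chr16:32631598-32631626, plus strand: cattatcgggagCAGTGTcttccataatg
Tfrc, 3′ UTR, chr16:32631663-32631691, plus strand: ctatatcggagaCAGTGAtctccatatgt
Tfrc, 3′ UTR, chr16:32631710-32631738, plus strand: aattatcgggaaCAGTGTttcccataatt

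The pattern occurs in the 5′ UTR of 0.129% and in the 3′ UTR of 0.583% of 21767 protein-coding genes. The pattern is strict, so an element that departs from it was not counted. Tfrc, with 4 matches to the pattern in its 3′ UTR, was the gene of these 4 with less message in KO. As given above, that call ended without any 1 KO library or WT library 1. Of the 3 with a hairpin in the 5′ UTR, an element known to act on translation, Fth1 had more message in KO and Ftl1 and Slc40a1 were not called. Without WT library 4 all 3 were called higher by edgeR, where 17.8% of all genes were called higher. Their log2 fold changes in that fit were 0.54 for Fth1, 0.36 for Ftl1 and 0.35 for Slc40a1. Protein was not measured.

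**Figure D4:**
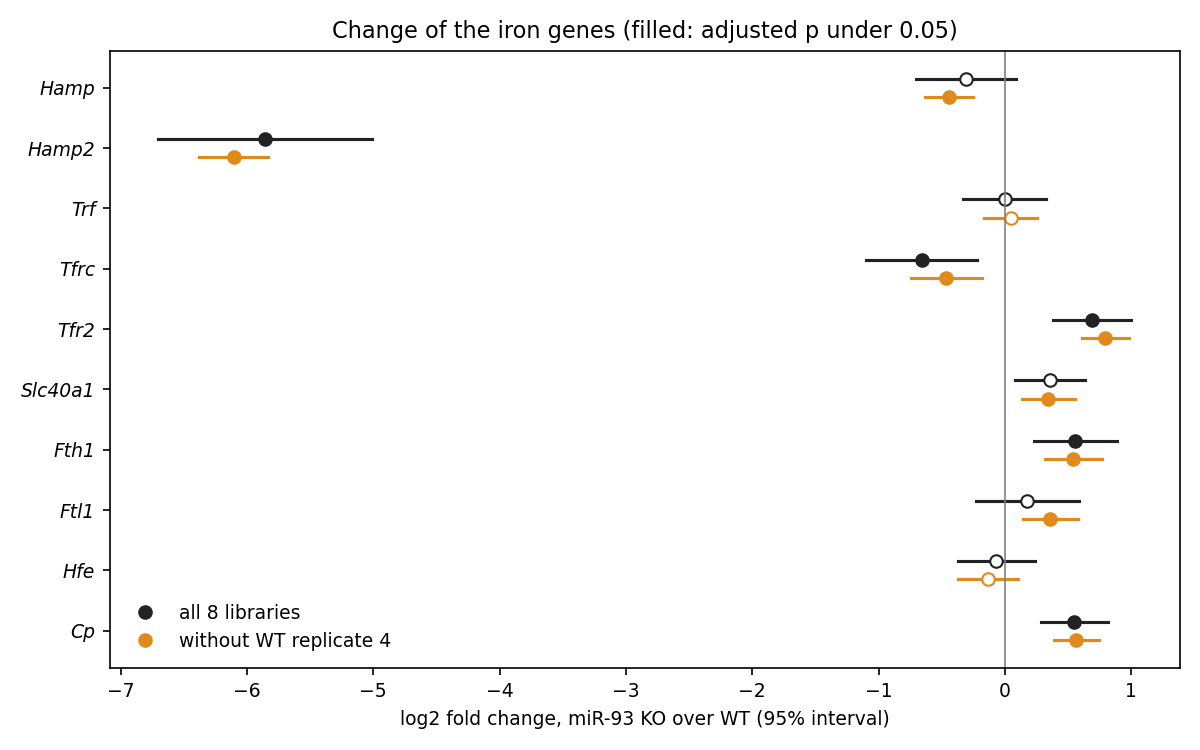
Log2 fold change of miR-93 KO over WT with its 95% interval for the 10 iron genes, over all 8 libraries and without WT library 4, filled where the adjusted p was under 0.05. Hamp2 stands at -5.86 over all libraries and the other 9 genes lie between -0.66 and 0.69.

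Levels of different genes were compared per kilobase of exon. In KO the order was Hamp (4030 CPM per kb), Trf (1768), Ftl1 (836), Fth1 (279), Tfr2 (104), Cp (74.5), Slc40a1 (7.59), Hfe (7.18), Hamp2 (3.90) and Tfrc (2.29). Neighbours in that order did not overlap over the libraries, except Slc40a1 and Hfe. In WT the order was Hamp (4986 CPM per kb), Trf (1769), Ftl1 (739), Hamp2 (224), Fth1 (189), Tfr2 (64.4), Cp (51.0), Hfe (7.40), Slc40a1 (5.92) and Tfrc (3.79). Here Hamp2 and Fth1 overlapped, as did Hfe with Slc40a1 and Slc40a1 with Tfrc. Hamp2 thus stood in place 9 of 10 in KO and in place 4 in WT. With the length of the principal transcript, an alternative added after seeing the data, it stood in place 9 in KO and 5 in WT.

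The rest of the iron pathway was read from 6 lists holding 85 genes, of which 75 were tested. In all, 23 of the 75 were called higher in KO and 4 lower, with a median log2 fold change of 0.22, against -0.01 over all tested genes, of which 10.4% were called higher and 10.7% lower. Without WT library 4, 35 were called higher and 8 lower, at the shares of all genes given above. Il6, Hephl1 and Ftmt had 0 counts in all 8 libraries, where 3 counts, the limit that a count of 0 allows, amount to 0.219 to 0.252 CPM in KO and 0.379 to 1.69 CPM in WT.

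Of the BMP and SMAD genes that control Hamp, 20 were tested, and 4 were higher in KO, 1 was lower and 15 were not called. Over all tested genes 10.4% were called higher and 10.7% lower. The median log2 fold change of the list was 0.13. The list gave 7 higher and 2 lower without WT library 4, 1 higher and 1 lower without WT library 3, and 2 higher and 0 lower without KO library 2 or 3. The lower call was also lost without KO library 1 or 4 or WT library 2. Calls over all genes ran from 760 to 2446 higher and from 728 to 2407 lower with each library left out in turn. List counts with 1 library left out, here and below, are therefore no result about the list alone. Atoh8, a transcription factor that binds the hepcidin promoter, averaged 25.2 ± 2.56 CPM in KO and 16.6 ± 2.44 CPM in WT (SD, n = 4 each), a log2 fold change of 0.64 ± 0.14 (SE, adjusted p = 0.0106, edgeR). Bmp2, a ligand made by sinusoidal endothelial cells, averaged 10.4 ± 3.83 CPM in KO and 4.56 ± 1.18 CPM in WT, at 1.23 ± 0.31 and an adjusted p of 0.0166. Smad9, a SMAD of the BMP branch, was higher at 0.66 ± 0.18 (adjusted p = 0.0232), and so was Id3, a target of BMP signalling that is named with its values known, at 0.45 ± 0.13 (adjusted p = 0.0360).

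Hemojuvelin (Hjv), the BMP co-receptor that hepcidin expression needs, was lower in KO. It had 64.9, 49.3, 67.0 and 52.8 CPM in the KO libraries, against 79.3, 104, 75.1 and 147 CPM in the WT libraries. The groups did not overlap, WT library 4 was the highest, and the log2 fold change was -0.78 ± 0.21 (adjusted p = 0.0254, edgeR). The call ended without any 1 KO library or WT library 2, at adjusted p-values of 0.0501 to 0.0934. That of Smad9 ended without KO library 2, 3 or 4 or WT library 1 or 3, at 0.0586 to 0.0799, and that of Bmp2 without WT library 3, at 0.0518.

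Bmp6, Tmprss6, Id1 and Smad7, a ligand, an inhibitor and readouts of the pathway, were not called over all 8 libraries. Bmp6, the ligand that follows liver iron, averaged 6.33 ± 1.38 CPM in KO and 5.03 ± 3.42 CPM in WT (SD, n = 4 each, adjusted p = 0.276, edgeR), with WT library 4 the highest of all 8 at 10.1 CPM. Without that library its log2 fold change was 0.94 with an adjusted p of 0.00501. Tmprss6, the protease that cleaves hemojuvelin, stood at -0.18 ± 0.13 on the log2 scale (adjusted p = 0.360). Id1 and Smad7, genes that BMP signalling induces, had 0.45 ± 0.20 (adjusted p = 0.127) and -0.20 ± 0.20 (adjusted p = 0.50). Id1 was called higher without WT library 4, at 0.52 with an adjusted p of 0.0267. Markers of sinusoidal endothelial cells, the known source of Bmp2 and Bmp6, summed to 180 to 340 CPM in KO, against 118 to 144 CPM in WT libraries 1 to 3 and 217 CPM in WT library 4. Of these 10 markers 7 were called higher in KO and 0 lower, where 10.4% of all genes were called higher and 10.7% lower. None of the markers was at 0 in all libraries, and the part of these cells in the levels of Bmp2 and Bmp6 was not tested.

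On the inflammatory arm, 6 of 12 tested genes were higher in KO and 0 lower by edgeR, with a median log2 fold change of 0.70. The shares over all genes were 10.4% higher and 10.7% lower. At an unadjusted p under 0.05 edgeR gave 8 higher and 1 lower, where 17.1% of all genes were higher and 18.5% lower. DESeq2 at an adjusted p under 0.05 called 7 higher and 0 lower, where it called 13.8% of all genes higher and 13.4% lower. By edgeR 8 were called higher and 2 lower without WT library 4, and 5 higher and 1 lower without WT library 1. Stat3, the factor that interleukin-6 activates, had 92.5, 100, 103 and 108 CPM in KO, against 49.1, 48.2, 44.4 and 47.2 CPM in WT, at a log2 fold change of 1.09 ± 0.12 (adjusted p = 0.000119). Socs3, a gene that STAT3 induces and that feeds back on it, averaged 32.9 ± 3.81 CPM in KO and 11.5 ± 3.24 CPM in WT (SD, n = 4 each), at 1.60 ± 0.19 (adjusted p = 0.000177). Il6ra, the receptor of interleukin-6, was higher at 1.26 ± 0.18 (adjusted p = 0.000796), and Il1r1, the receptor of interleukin-1, at 2.84 ± 0.18 (adjusted p = 2.11e-06). None of these 4 had overlapping groups. Il6st and Cebpd, named after their values were seen, were the other 2 called genes. The STAT match printed above stands before both hepcidin genes. In the same libraries Hamp2 was called lower and Hamp was not called. Without WT library 4 Hamp was lower, at -0.44 (adjusted p = 0.000676, edgeR). The part of STAT3 in the level of either gene was not tested.

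Genes of other routes of iron into the cell were higher in KO for 5 of 10 tested and lower for 0, with a median log2 fold change of 0.52. At an unadjusted p under 0.05 the counts were 6 higher and 0 lower, DESeq2 called 5 higher and 0 lower, and edgeR without WT library 4 called 6 higher and 0 lower, beside the shares of all genes given above for each. Lcn2, which binds iron-carrying siderophores and is an acute-phase protein of the liver, had 409, 436, 436 and 446 CPM in KO, against 6.06, 5.22, 7.59 and 2.25 CPM in WT. Its log2 fold change was 6.24 ± 0.25 (adjusted p = 5.04e-08, edgeR). Scara5, a receptor for ferritin, averaged 24.6 ± 2.07 CPM in KO and 4.0 ± 1.20 CPM in WT (SD, n = 4 each), at 2.54 ± 0.20 (adjusted p = 8.91e-06). Steap4, a metalloreductase, was higher at 1.57 ± 0.28 (adjusted p = 0.00313), and Slc39a8, a carrier of zinc, manganese and iron, at 0.92 ± 0.21 (adjusted p = 0.0101). Slc39a14, a carrier of iron not bound to transferrin, was the other called gene, also named with its values known, at 0.47 ± 0.13 (adjusted p = 0.0312). Neutrophils also make Lcn2. Their 10 markers summed to 3.87 to 7.90 CPM in KO, against 1.97 to 2.53 CPM in WT libraries 1 to 3 and 4.50 CPM in WT library 4. Of the 10, Ngp and Mpo were at 0 in all libraries. S100a9 and Retnlg, named after their values were seen, lay higher in every KO library than in any WT library. So did 16.3% of all tested genes. Retnlg rests on 5, 3, 12 and 8 counts in KO and 1, 1, 0 and 0 in WT. The groups of the other markers with counts overlapped. Also named with its values known, S100a8 averaged 1.09 CPM in KO and 1.54 CPM in WT. The highest KO sum, in library 1, includes 3.75 CPM of Ltf from 46 counts, where other libraries had 0 or 1. S100a9 was the 1 marker that passed the filter, and it was not called. The part of neutrophils in the level of Lcn2 was not tested.

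Genes that clear haem and haemoglobin were higher for 6 of 12 tested and lower for 0, with a median log2 fold change of 0.60. At an unadjusted p under 0.05 the counts were 7 higher and 0 lower, DESeq2 called 6 higher and 0 lower, and edgeR without WT library 4 called 9 higher and 0 lower, beside the same shares of all genes. Haptoglobin (Hp), which binds free haemoglobin, averaged 7540 ± 541 CPM in KO and 2736 ± 59.2 CPM in WT (SD, n = 4 each), at 1.46 ± 0.13 (adjusted p = 2.59e-05, edgeR). Haemopexin (Hpx), which binds free haem, was higher at 0.78 ± 0.14 (adjusted p = 0.00279). Cd163, the macrophage receptor for the complex of haptoglobin and haemoglobin, had 18.6, 17.1, 16.8 and 17.4 CPM in KO, against 1.89, 3.44, 1.21 and 9.56 CPM in WT, at 2.53 ± 0.40 (adjusted p = 0.00144). It is itself among the Kupffer cell markers given above. Hmox2, the constitutive haem oxygenase, was higher at 0.73 ± 0.18 (adjusted p = 0.0149), a call that ended without KO library 2 or 4 or WT library 2, at 0.0518 to 0.0564. Hmox1, the inducible haem oxygenase, was not called, at 0.26 ± 0.34 (adjusted p = 0.615), with WT library 4 the highest of all 8 at 25.3 CPM. Without that library it was 0.71 with an adjusted p of 0.00189. Blvrb and Flvcr2, named after their values were seen, were the other 2 called genes.

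The iron-sensing list gave 1 call among 6 tested genes, higher in KO, with a median log2 fold change of 0.34. It gave 2 higher calls without WT library 4, beside the shares of all genes given above for each fit. Pcbp1, a chaperone that delivers iron to ferritin, had 149, 150, 162 and 153 CPM in KO, against 109, 88.8, 96.9 and 32.6 CPM in WT, at 0.88 ± 0.27 (adjusted p = 0.0410, edgeR). The call ended without any 1 KO library or WT library 2 or 3, at 0.0631 to 0.0980. Its relative Pcbp2 had 0.32 ± 0.17 (adjusted p = 0.201). The iron regulatory proteins that bind the hairpins printed above were not called, with Aco1 at 0.37 ± 0.19 (adjusted p = 0.183) and Ireb2 at -0.31 ± 0.13 (adjusted p = 0.101), although the groups did not overlap for Ireb2.

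Of 15 mitochondrial iron genes tested, 1 was higher in KO and 3 were lower, where 10.4% of all genes were called higher and 10.7% lower. The median log2 fold change of the list was -0.03, close to the -0.01 over all tested genes. The counts were 3 higher and 4 lower without WT library 4. Without WT library 1, 2 were higher and 2 lower, and without KO library 2, 3 or 4 or WT library 2 or 3, 1 was higher and 1 lower. Calls over all genes change between these fits as well, as given above. Glrx5, a glutaredoxin of iron-sulphur cluster assembly, averaged 65.6 ± 4.40 CPM in KO and 36.1 ± 8.62 CPM in WT (SD, n = 4 each), at 0.83 ± 0.17 (adjusted p = 0.00539, edgeR). Abcb10, a transporter of the inner membrane needed for haem synthesis in red cell precursors, averaged 16.4 ± 2.22 CPM in KO and 28.9 ± 4.76 CPM in WT, at -0.84 ± 0.16 (adjusted p = 0.00362). The mitochondrial iron importer Slc25a37 was lower at -0.85 ± 0.22 (adjusted p = 0.0188) and Abcb8, another transporter of that family, at -0.38 ± 0.12 (adjusted p = 0.0493). The call of Slc25a37 ended without KO library 2, 3 or 4 or WT library 2 or 3, at 0.0564 to 0.0745. That of Abcb8 ended without any 1 library except WT library 4, at 0.0646 to 0.139, and with upper quartile scaling, at 0.0502. It ended with the replicate block too, at 0.151 by edgeR, and held in only 4 of the 16 alternatives. With no filter on low counts the calls of Abcb8, Pcbp1 and Smad9 ended as well, at 0.232, 0.0530 and 0.0547.

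Abcb10 and Slc25a37 are also highly expressed in red cell precursors. Markers of that lineage summed to 306 to 416 CPM in KO, against 435 to 548 CPM in WT libraries 1 to 3 and 365 CPM in WT library 4, and of the 9 matched markers Epb42 was at 0 in all libraries. Of the 5 that were tested 2 were lower in KO and 0 higher, where 10.7% of all genes were called lower and 10.4% higher. The 2 are named after their values were seen: Alas2, the haem synthesis enzyme of red cells, at -1.49 ± 0.12 (adjusted p = 1.23e-05, edgeR), and the globin gene Hba-a2 at -0.90 ± 0.22 (adjusted p = 0.0156). The other 3, all globin genes, were not called, at -0.62 (adjusted p = 0.0506), -0.05 (adjusted p = 0.911) and 0.13 (adjusted p = 0.702). Without WT library 4, 3 of the 5 were lower and 0 higher, where 17.5% of all genes were called lower. The part of these cells in the 2 mitochondrial genes was not tested.

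**Figure D5:**
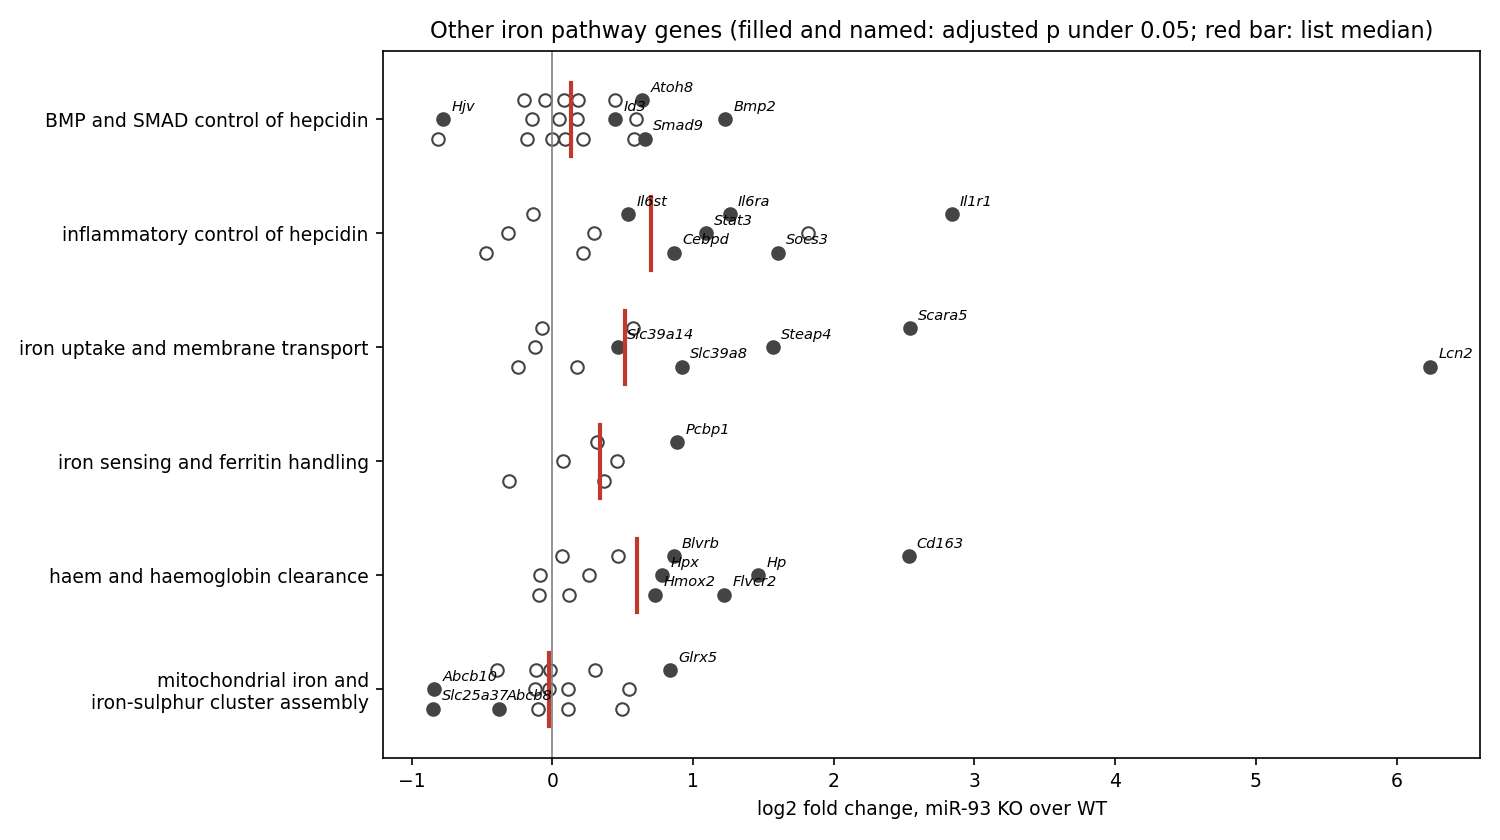
Log2 fold change of miR-93 KO over WT for each tested gene of the 6 iron pathway lists, 75 genes in all, with called genes named and filled and a bar at each list's median. Of the 23 calls above 0, 1 is in the mitochondrial list and the others are spread over the other 5 lists. Of the 4 calls below 0, 3 are in the mitochondrial list and 1 in the BMP and SMAD list.

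The genes whose levels ran most like those of the hepcidins over the 8 libraries differed for the pair. Genes were ranked by Pearson correlation of log2 CPM, with pseudogenes, genes with Gm or Rik names and IDs without a symbol skipped. The 3 nearest to Hamp among those kept were Gadd45gip1 (r = 0.993), Apoc4 (r = 0.989) and Ndufb7 (r = 0.981), none of them called between genotypes. The 3 nearest to Hamp2 among those kept were Upp2 (r = 0.998), Serpina6 (r = 0.995) and Nrep (r = 0.994). All 3 were lower in KO by edgeR, at log2 fold changes of -1.22 ± 0.13 for Upp2 (adjusted p = 0.000112), -1.19 ± 0.14 for Serpina6 (adjusted p = 0.000146) and -2.98 ± 0.17 for Nrep (adjusted p = 8.36e-07). The values describe these libraries, which share their depth and composition, and any gene that separates the genotypes widely will correlate with Hamp2.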

How the data were processed

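The authors deposited 1 table of raw read counts per gene and library, not normalized, as its headers and whole-number values show. The submitters' processing notes name cutadapt 4.2, STAR 2.7.10a and the mm39 build. The counting program, strand setting and treatment of reads matching several genes were not stated in the labels or notes used here. Gene symbols came from GENCODE M21 on GRCm38, with RefSeq synonyms, and named 52073 of 56748 IDs. Coordinates, UTRs and transcripts are from that annotation, and promoters and the microRNA from RefSeq on GRCm38.p6, not from the authors' build.

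KO and WT were compared by edgeR 4.0.16 (robust quasi-likelihood fit, TMM, filterByExpr, two-sided, R 4.3.3) on all 8 libraries, which tested 13204 of 25937 detected genes. Totals were 5085860 to 10966019 counts, so 3 counts in WT library 4 amount to 1.69 CPM after scaling. Ratios used counts plus 0.5. No 2 libraries of a group agreed within sampling noise, since the chi-square of the nearest pair was 2.77 per degree of freedom. On simulated data for this comparison, over 13021 genes, the fit recovered 56 of 98 genes simulated with an absolute log2 difference of 1 and 91 of 99 with 2, and 6.37% of 157 calls were false.

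The members, the lists and the tests were chosen with earlier results of these data known. Named genes are the 10 members, the 4 smallest p-values of each list, Bmp6, Hjv, Tmprss6, Id1, Smad7, Socs3, Hmox1 and Lcn2, and the 3 genes most like each hepcidin after the skipping described above. Others are said to have been named after their values were seen. Hjv and Fdx2 were matched by synonym, and the marker Ahsp was unmatched. Alternatives were other scalings, no filter, DESeq2 1.42.0, limma-voom (limma 3.58.1), a replicate block, leaving out mitochondrial genes and each library in turn. Figures were drawn with matplotlib 3.10.9.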

Additional observations from a re-analysis of the deposited data

Results flagged for a closer look

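In 22 groups of 4 libraries checked for a value far from the others, 2 stood out, both from WT library 4. By chance about 1 in 20 groups is picked out this way. Hamp2 was 47.8 CPM in that library, against 153 to 167 CPM in the other 3 WT libraries. The log2 ratio of Hamp to Hamp2 was 4.86 there, against 3.83 to 3.84 in the others. The same library has the fewest counts and a mitochondrial share of 77.8%, and the part of either in these values was not tested.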

How the results depend on the processing

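Hamp2 was called lower in KO under all 16 alternatives run, at log2 fold changes of -6.11 to -5.45. With library sizes alone, which shifts the median of all genes by 0.54, edgeR called 561 genes higher and 124 lower, against 1369 and 1408, members 0 higher and 1 lower, and iron list genes 14 higher and 0 lower. At an unadjusted p under 0.05 that setting gave 5 members higher and 1 lower and 35 list genes higher and 0 lower. Over all genes it gave 23.1% higher and 2.68% lower. TMM scaling gave 4 members higher and 2 lower and 31 list genes higher and 8 lower. Over all genes TMM scaling gave 17.1% higher and 18.5% lower. Library sizes alone also turned the sign of Hamp (0.17), Trf (0.59), Hfe (0.46), Abcb8 (0.19), Ireb2 (0.29), Smad7 (0.31) and Tmprss6 (0.42). Trf, at -0.0014 in the reported fit, read 0.0030 with DESeq2 size factors, 0.0011 with upper quartile scaling, 0.066 with no filter, 0.0031 with the DESeq2 test, 0.0023 with limma-voom and 0.0015 with the replicate block.

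With each library left out in turn, genes higher ran from 760 to 2446 and lower from 728 to 2407. Members ran from 2 to 5 higher and from 1 to 3 lower, and iron list genes from 15 to 35 higher and from 1 to 8 lower. Hamp ran from -0.44 to -0.22, Trf from -0.076 to 0.067 and Hfe from -0.13 to 0.011, and the ratio of Hamp to Hamp2 differed by 5.31 to 5.66. The highest counts were those without WT library 4.

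The labels do not say whether replicate numbers pair the libraries. Same-numbered libraries correlated at -0.19 to -0.03 in their deviations from the group means, and 0 of 8 correlated best with their own number. Deviations from a group mean sum to 0 and WT library 4 stood far from its group, so these correlations cannot decide pairing. With the block, 643 genes were higher and 624 lower, 1 member higher and 1 lower, and 14 list genes higher and 1 lower. The paired difference of the Hamp to Hamp2 ratio was 5.40 with p = 0.125, the smallest an exact sign permutation of 4 pairs can give.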
